A study of Drosophila melanogaster with 6 samples.

Results

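The X chromosome of male flies is present in a single copy, whereas the autosomes are present as pairs. RNA from dissected eyes of aging male flies was used here to set X-linked genes against genes of the autosomal arms 2L, 3L and 3R. X-linked genes were those that the authors' table of gene positions places on chromosome X. There were 1897 of them among 14537 genes or groups of overlapping genes counted, and the comparison arms held 2413 genes (2L), 2399 genes (3L) and 2786 genes (3R). The 2404 groups of overlapping genes, which were counted together, have no chromosome in that table. They were kept in the fit and left out of the counts of X-linked genes.

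The 2 groups were eyes of flies aged 10 days (3 libraries) and eyes of flies aged 40 days (3 libraries) after eclosion, and the series describes the libraries of an age as biological replicates. All flies were male, were raised in a cycle of 12 hours of light and 12 hours of dark at 25 degrees C, and carried one genotype. In it a white mutant background was combined with a UAS-GFP-Msp300KASH transgene, marked with w[+mC], at attP2, and with an rh1-GAL4 insertion in a ry[506] background (Rh1-Gal4>KASH-GFP). The KASH-GFP tag marks the nuclear envelope, and the rh1-GAL4 driver acts in the outer photoreceptors. The RNA measured was ribo-depleted RNA of whole dissected eyes and was not selected by the tag. In such bulk tissue, fewer cells of a type and less RNA per cell cannot be told apart.

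In Drosophila males, the single X chromosome is transcribed at a raised rate by the MSL complex. The complex contains the proteins MSL-1, MSL-2, MSL-3, MOF and MLE and the noncoding RNAs roX1 and roX2. It binds along active X-linked genes, where MOF acetylates a histone tail, and this brings the output of the X chromosome close to that of the paired autosomes. The eye uses many X-linked genes, among them norpA, the phospholipase C of phototransduction, and w, a transporter of eye pigment precursors.

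The 3 libraries of day 10 held between 8946125 and 15029770 counts on genes, and those of day 40 between 8476220 and 12686867. Markers of photoreceptors were abundant in every library. The 9 of 10 counted as single genes, none of them at 0, summed to between 73592 and 109325 CPM (counts scaled to the library total) at day 10 and to between 78444 and 90456 at day 40. Day 10 replicate 3 stood apart in markers of other tissues. The 4 of 7 fat body markers counted as single genes, which include Yp2, summed to 391 CPM there, to 112 and 147 in the other day 10 libraries and to between 120 and 150 at day 40. Most of the sum there came from the yolk protein genes Yp3 (198 CPM) and Yp2 (135 CPM). The marker gene to had 57.5 CPM there, 20.1 and 30.3 in the other day 10 libraries and 47.0 to 51.0 at day 40. Fbp1 had at most 2.35 CPM and was not highest there. The sums of the 3 hemocyte and 5 muscle markers counted were high in the same library, at 579 and 1226 CPM against at most 276 and 671 in any other library. The hemocyte sum was also lower at day 40 in every library (141 to 167 CPM, against 268 to 579 at day 10). It was almost wholly Hml on 3L (135 to 160 CPM at day 40, 262 to 572 at day 10), the 1 marker called lower. The others were low, at most 6.6 CPM, and neither was highest in day 10 replicate 3. Of these, eater was lower in every day 40 library and NimC1 overlapped between the ages. None of these markers was at 0 over the libraries. The part of these other tissues in the values below was not tested. Of the 38 X-linked genes called below, 14 lost their call without day 10 replicate 3. Values with it left out are given for some of the genes only.

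Of the 1897 X-linked genes, 1183 (62.4%) had enough counts to be tested, 714 did not, and 80 of the latter had no count in any library. The genes not tested were low, with Obp19b, an odorant binding protein, reaching the highest count among them (108 in a library). The tested genes comprised 1092 of 1524 protein-coding genes, 36 of 184 long noncoding RNA genes, 10 of 28 snoRNA genes and 5 of 41 miRNA genes, with the remainder in smaller classes or not matched to RefSeq. The tested share was lower on the autosomal arms, at 51.5% (2L), 58.9% (3L) and 60.9% (3R).

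X-linked genes took a steady share of the counts. Of the counts on single genes, 16.7%, 16.1% and 16.3% fell on the X chromosome in day 10 replicates 1, 2 and 3 (16.3% ± 0.331, SD, n = 3), and 15.9%, 16.2% and 16.4% in day 40 replicates 1, 2 and 3 (16.2% ± 0.239, SD, n = 3). The values of the ages overlapped. X-linked genes made up 15.6% of the single genes.

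Levels of genes were set side by side as normalized counts per kb of exonic length, where a normalized count is a count divided by a median-ratio size factor of its library. The median level over the tested X-linked genes was 107 normalized counts per kb, against 93.9 over 2L, 3L and 3R. The single arms lay at 88.8 (2L), 91.2 (3L) and 102 (3R). The X chromosome lay above the autosomal arms at the lower and middle quantiles. Its lower quartile was 39.8 normalized counts per kb against 30.6 on the autosomal arms and its upper quartile 269 against 251, and at the 95th percentile it lay below them (1122 against 1184). X-linked genes were also longer, with a median exonic length of 2319 bases against 2026.

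The dosage balance was computed within each library, as the median log2 count per kb over the tested X-linked genes minus the same median over 2L, 3L and 3R. It was 0.33, 0.24 and 0.21 in day 10 replicates 1, 2 and 3, and 0.21, 0.16 and 0.17 in day 40 replicates 1, 2 and 3. Every library thus placed the X chromosome above the autosomal arms, and the day 10 values were at or above the day 40 values, with the nearest of them 0.207 at both ages. The mean balance was 0.26 ± 0.06 at day 10 and 0.18 ± 0.02 at day 40 (SD, n = 3 each), which are X to autosome ratios of 1.20 and 1.13.

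Autosomal arms were set against each other the same way, so that a move of one arm shifts the balances of the others. The mean balance of 2L against 3L and 3R went from -0.09 to -0.15 and that of 3L against 2L and 3R from -0.07 to -0.12. The 3R arm went the other way, from 0.15 to 0.23. The difference between the ages was -0.082 on the X chromosome, and on the paired arms it was -0.061 (2L), -0.059 (3L) and 0.075 (3R). Without division by exonic length it was -0.072 on the X chromosome and -0.023, 0.0029 and 0.0061 on 2L, 3L and 3R. No p-value was computed for these medians.

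**Figure D1:**
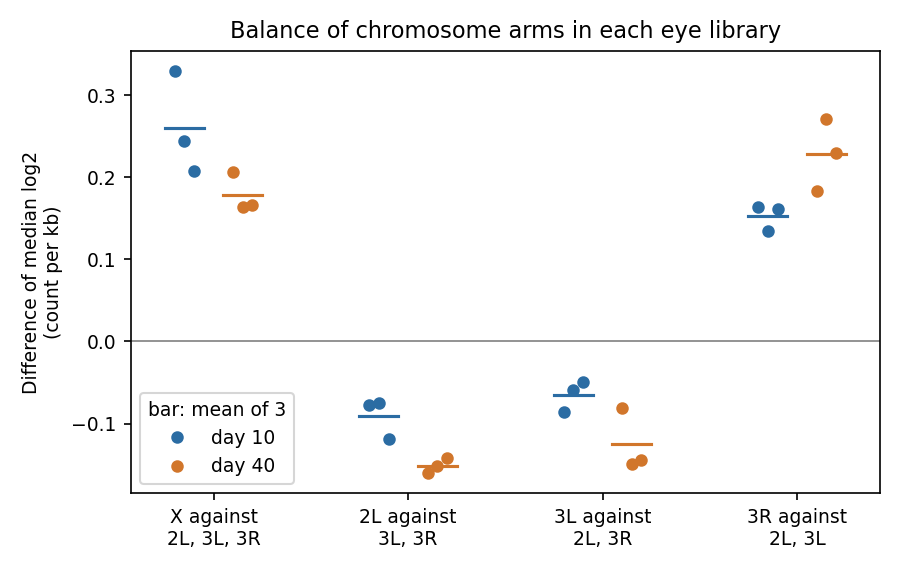
Dosage balance of each chromosome arm in each of the 6 libraries: the vertical axis is the difference of median log2 counts per kb between the arm named and the comparison arms, points are libraries (day 10, 3; day 40, 3) and bars are means. The X chromosome lies above 0 in all libraries (0.16 to 0.33), and 3R lies above 0 and 2L and 3L below it.

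The size and sign of the balance depended on which genes entered. Among genes whose mean normalized count reached 100 (794 X-linked and 2647 autosomal) it was -0.04 ± 0.04 at day 10 and -0.06 ± 0.03 at day 40. With every gene that had at least 1 count in the library, it was 0.70 ± 0.23 at day 10 and 0.75 ± 0.04 at day 40. Both of these choices select genes by counts not divided by length, which enter the quantity compared. The low-count filter behind the main balance does so too. The balances are therefore given side by side only.

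To ask which genes differed between the ages, all genes and groups were fitted together with edgeR (quasi-likelihood test, Benjamini-Hochberg adjustment). The threshold was an adjusted p of 0.1, as the study used for gene expression in eyes. Of the 1183 X-linked genes tested, 38 changed (3.21%), and the background over all 9255 genes and groups tested was 4.12%. By direction, 13 X-linked genes were higher at day 40 (1.10%, background 2.14%) and 25 were lower (2.11%, background 1.98%). The 3 autosomal arms together had 102 higher (2.34%) and 95 lower (2.18%). Lower calls on the X chromosome were thus near the background share and higher calls were below it. DESeq2, another test of counts, gave more calls: 68 of 1230 X-linked genes passed (5.53%, background 6.22%), of which 21 were higher (background 2.88%) and 47 lower (background 3.34%), and the 38 were among them. At an unadjusted p under 0.05 in edgeR, 149 X-linked genes passed (12.6%), against 14.3% of all features tested.

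The 38 calls rested unevenly on the libraries. Of the 38, 20 were lost whichever day 40 library was left out. With day 10 replicate 1, 2 or 3 left out, 8, 13 and 14 of the 38 were lost, and with day 40 replicate 1, 2 or 3 left out, 25, 28 and 24 were lost. In counts, 5 higher and 5 lower X-linked genes passed without day 40 replicate 2. Leaving out day 10 replicate 1 gave 22 higher calls. Leaving out day 40 replicate 1 gave 7 higher and 7 lower calls, and leaving out day 40 replicate 3 gave 5 lower calls. Shares over all features are not given for these fits, so the swings were not shown to be particular to X-linked genes. The 9 genes called whichever library was left out were CG5966, CG15784, PGRP-SA, Bcat and the long noncoding RNA CR45517 among the higher, and Cyp4g1, CG5162, w and CG32816 among the lower.

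Over all tested genes, the median fitted log2 change of X-linked genes was -0.037 against 0.0029 on the autosomal arms, a difference of -0.040. Each autosomal arm lay nearer to the others, at 0.021 (2L), -0.019 (3L) and -0.0028 (3R). Of X-linked genes, 56.8% had a fitted change below 0, against 47.2% (2L), 51.5% (3L), 49.8% (3R) and 51.1% of all features. The difference was uneven across libraries, running from -0.052 without day 10 replicate 3 to -0.013 without day 10 replicate 2, where 3L lay further down at -0.022.

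The upper and lower ends of the distribution differed. The 5th percentile of changes was -0.80 on the X chromosome and -0.82 on the autosomal arms, but the 95th percentile was 0.55 against 0.69, with 0.63 on 2L, 0.66 on 3L and 0.73 on 3R. A fitted fall of at least 1 on the log2 scale was found for 3.47% of X-linked genes, within the range of the arms (3.14% on 2L, 4.25% on 3L and 3.60% on 3R). A rise above 1 was found for 1.10% of X-linked genes, against 2.25% (2L), 2.05% (3L) and 2.24% (3R). The 3 libraries of one age all lay above the 3 of the other for 222 X-linked genes (18.8%), of which 99 were higher and 123 lower at day 40, and the background for this was 20.2% of all features.

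**Figure D2:**
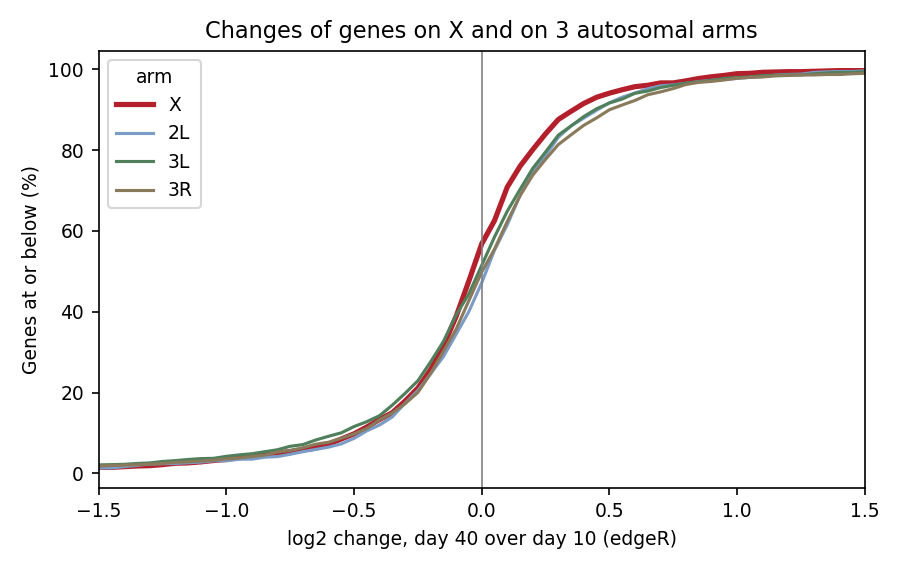
Cumulative share of tested genes (vertical axis, percent) at or below each fitted log2 change from day 10 to day 40 (horizontal axis) for X, 2L, 3L and 3R. The curves lie close together at large falls. The X curve lies over the others from just below 0 (at -0.05, 47.7% on X, 40.1% on 2L, 44.5% on 3L and 42.8% on 3R), with 56.8% of X-linked genes below 0.

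X-linked genes also varied less between libraries of one age. Their median SD of log2 levels was 0.250 at day 10 and 0.167 at day 40, against 0.280 and 0.181 on the autosomal arms. These SDs were taken over all tested genes and were not compared at matched counts. More X-linked genes lay in the middle of the range of levels, with 17.2%, 18.5%, 22.0%, 22.0% and 20.3% of them in 5 equal bins of level from lowest to highest, so changes were also compared at matched levels.

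Within the bins, the median change of X-linked genes minus that of autosomal genes was -0.016, -0.073, -0.037, -0.043 and -0.031 from the lowest to the highest level. The X median was the lowest of the arms in every bin except the lowest, where 3L was lower (-0.11 against -0.08). With the autosomal genes weighted over 10 bins of level to match the X chromosome, the difference was -0.042. The called genes were spread unevenly over the 5 bins. From lowest to highest, 0, 0, 1, 7 and 5 X-linked genes were higher at day 40 and 3, 6, 5, 4 and 7 were lower. The bins held 204, 219, 260, 260 and 240 X-linked genes and 903, 887, 847, 846 and 867 autosomal genes. Of the autosomal genes, 6, 8, 16, 33 and 39 were higher and 19, 20, 19, 16 and 21 were lower. Higher calls thus lay mostly in the upper bins on the X chromosome and on the autosomal arms alike.

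**Figure D3:**
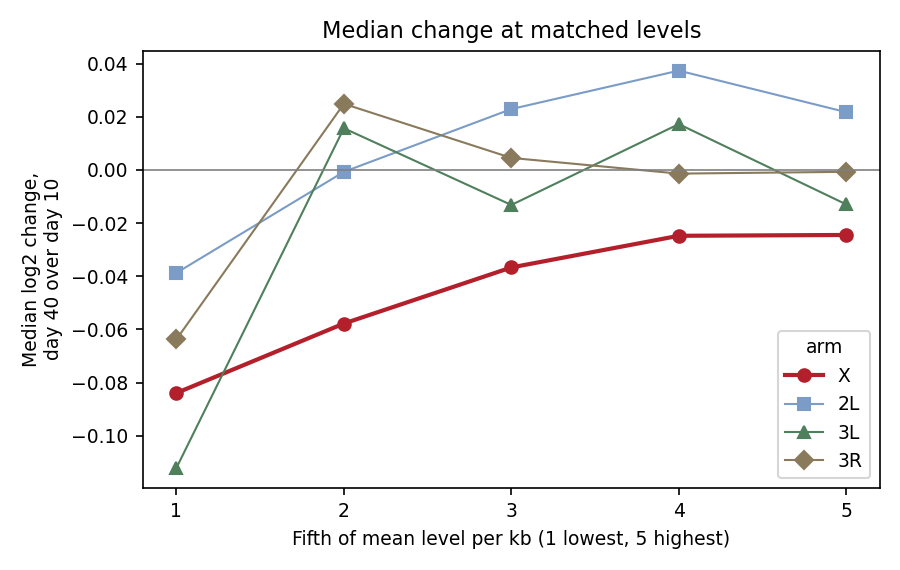
Median fitted log2 change from day 10 to day 40 (vertical axis) in 5 equal bins of mean normalized count per kb (horizontal axis, lowest to highest) for X, 2L, 3L and 3R. The X medians are -0.08 where levels are lowest and -0.02 where they are highest, and lie below all 3 autosomal arms in every bin but the lowest.

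Median changes were then followed along the chromosome. In 11 consecutive blocks of 107 or 108 tested genes, the median change was below 0 in 11 of them and ran from -0.084 to -0.0014. The same median was -0.0067 over all features and -0.0078 on 3L, so the highest block lay above both. No blocks of autosomal genes were formed. The lowest block lay at X:15934495-17633509 and the highest at X:10590920-12453650. Median levels of the blocks ran from 82.0 to 154 normalized counts per kb. Of the 13 genes higher at day 40, 5 lay in the block X:4939128-6770712, and no other block held more than 2.

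Of the genes of the dosage compensation machinery, one on an autosome changed and those on the X chromosome did not pass. The X-linked RNA roX2 had normalized counts of 995, 1204 and 963 at day 10 and 1084, 1034 and 1133 at day 40, with a log2 change of 0.04 ± 0.11 (SE, adjusted p = 0.927, edgeR). The acetyltransferase gene mof, also on the X chromosome, had a log2 change of 0.07 ± 0.15 (SE, adjusted p = 0.894, edgeR). The RNA roX1 was counted together with the overlapping gene ec, and that sum did not pass the test, at a log2 change of 0.23. Of the autosomal members, mle, an RNA helicase of the complex, rose (log2 change 0.76, adjusted p = 0.00602 in edgeR), from 886, 943 and 822 normalized counts at day 10 to 1460, 1566 and 1482 at day 40. The scaffold gene msl-1 had a log2 change of -0.0041. The other members were counted in groups with overlapping genes and did not pass, with log2 changes of 0.38 for the group of msl-2 (adjusted p = 0.18 in edgeR, day 40 libraries all above those of day 10) and -0.23 for that of msl-3. The group of Clamp, an adaptor of the complex on the X chromosome, had 0.13.

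Among the 13 X-linked genes that were higher at day 40, CG5966, which encodes a protein of the lipase family, had the lowest p-value. Its normalized counts were 198, 178 and 143 at day 10 and 1337, 958 and 849 at day 40. Every day 40 library was several-fold above every day 10 library, with a fitted 6.05-fold rise (log2 change 2.60 ± 0.19, SE, adjusted p = 0.000211, edgeR). The gene lies at X:5988791-5992640 (BDGP6).

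CG15784 and the long noncoding RNA CR45517 are neighbors, 314 bases apart at X:5428483-5432526, and both rose. CG15784 had 772, 962 and 1436 normalized counts at day 10 and 3603, 3754 and 3253 at day 40 (log2 change 1.73, adjusted p = 0.00577, edgeR). CR45517 had 118, 86.0 and 101 at day 10 and 345, 206 and 208 at day 40 (log2 change 1.31, adjusted p = 0.0269, edgeR). Both genes separated the ages, and the highest library differed between them. The authors' table gives positions without regard to strand.

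PGRP-SA, a peptidoglycan receptor that acts upstream of Toll in the response to Gram-positive bacteria, had 74.0, 87.5 and 76.2 normalized counts at day 10 and 237, 181 and 206 at day 40. This was a 2.61-fold rise (log2 change 1.38 ± 0.18, SE, adjusted p = 0.00602, edgeR). The day 10 libraries were close together, and the lowest day 40 library lay above them all. Its X-linked relative PGRP-LE was the other member of the immune list on this chromosome and did not pass the test. The 16 members of that list tested elsewhere in the genome had a median log2 change of 2.20.

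Bcat, NAAT1 and GIIIspla2 were also among the genes that rose. Bcat, a branched-chain amino acid transaminase, went from 387, 398 and 356 normalized counts to 817, 685 and 583 (log2 change 0.86, adjusted p = 0.0172, edgeR). NAAT1, an amino acid transporter, went from 366, 369 and 442 to 612, 581 and 574 (log2 change 0.58, adjusted p = 0.0584, edgeR). GIIIspla2, a secreted phospholipase A, went from 348, 243 and 247 to 529, 518 and 415 (log2 change 0.81, adjusted p = 0.0496, edgeR). In these 3 genes the ages did not overlap, and the distance between the nearest libraries was larger than the spread within day 40 for NAAT1 alone. The calls of NAAT1 and GIIIspla2 were each lost in 4 of the 6 fits with 1 library left out.

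A transcription factor gene and a polarity gene were among the 13 as well. The transcription factor gene zld, known for opening chromatin in the early embryo, had 735, 995 and 781 normalized counts at day 10 and 1163, 1306 and 1507 at day 40 (log2 change 0.66, adjusted p = 0.0539, edgeR). The cell polarity gene par-6 had 1742, 1825 and 1522 at day 10 and 2164, 2401 and 2218 at day 40, the smallest of the called rises (log2 change 0.41, adjusted p = 0.0889, edgeR). The call of par-6 was lost whichever of the 6 libraries was left out (adjusted p from 0.112 to 0.469, edgeR). That of zld was lost whichever day 40 library was left out, and also without day 10 replicate 3 (adjusted p = 0.126, edgeR). The genes CG44774, CG4660 and CG9689 rose by log2 changes of 0.85, 0.84 and 0.92.

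CG34324 had the largest fitted rise, and it rested on single libraries. Its normalized counts were 216, 49.1 and 226 at day 10 and 3125, 20386 and 232 at day 40. Day 40 replicate 3 was thus level with day 10 replicates 1 and 3, while day 40 replicate 2 was far above every other library. The fitted log2 change was 5.60 with an SE of 1.37 (adjusted p = 0.0797, edgeR), and it was 3.36 without day 40 replicate 2. The call was lost on leaving out any of the day 10 libraries or either of the 2 high day 40 libraries, and it was kept without day 40 replicate 3 (adjusted p = 0.0178).

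**Figure D4:**
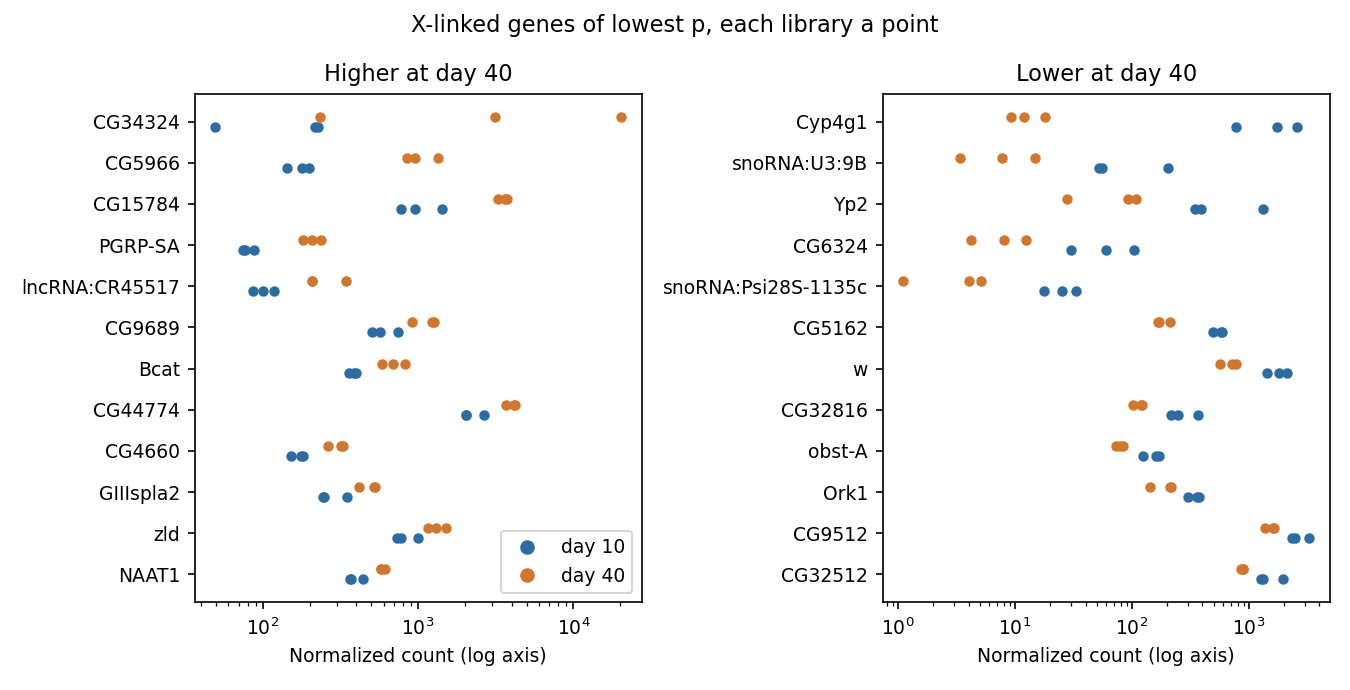
Normalized counts (horizontal, log axis) of the 12 X-linked genes of lowest p-value in each direction, one point per library (day 10, 3; day 40, 3). The 24 genes were picked among calls whose ages do not overlap, so the lack of overlap is not a result. Cyp4g1 shows the widest separation, with 779 to 2593 at day 10 and 9.3 to 17.9 at day 40.

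Cyp4g1 fell the most of the X-linked genes called. It encodes the cytochrome P450 of the oenocytes that makes the hydrocarbons of the cuticle. Its normalized counts were 779, 2593 and 1737 at day 10 and 12.0, 17.9 and 9.3 at day 40, so that the lowest day 10 library was far above the highest day 40 library. The fitted change was 132-fold lower (log2 change -7.04 ± 0.51, SE, adjusted p = 0.000211, edgeR). Day 10 replicate 3, the library with high sums of fat body, hemocyte and muscle markers, was not the highest for Cyp4g1. None of the other 6 tested X-linked cytochrome P450 genes passed.

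CG32816 spans the Cyp4g1 locus (X:316576-470726 against X:467057-469335) and fell from 366, 249 and 214 normalized counts to 120, 122 and 102 (log2 change -1.26, adjusted p = 0.0202, edgeR). It was highest in day 10 replicate 1, where Cyp4g1 was lowest of its age.

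CG5162, another gene of the lipase family, had 572, 587 and 496 normalized counts at day 10 and 168, 209 and 172 at day 40. The libraries of each age were close together and the fall was 3.02-fold (log2 change -1.59 ± 0.14, SE, adjusted p = 0.000625, edgeR). CG9512, of the GMC oxidoreductase family, fell from 3284, 2490 and 2310 to 1615, 1380 and 1638 (log2 change -0.80, adjusted p = 0.0272, edgeR). Its call was lost without day 40 replicate 1 or 2 (adjusted p = 0.113 and 0.176, edgeR). CG5162 lies at X:17215304-17217365.

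Yp2, a yolk protein made by the fat body, had 344, 391 and 1313 normalized counts at day 10 and 108, 92.9 and 27.9 at day 40. The highest value was in day 10 replicate 3. The high fat body sum of that library includes Yp2 itself, so the sum does not speak to Yp2 separately. The fitted log2 change was -3.23 ± 0.63 (SE, adjusted p = 0.0351, edgeR). The small nucleolar RNA gene snoRNA:U3:9B had the same high library, with 55.5, 52.2 and 205 at day 10 and 14.7, 7.8 and 3.4 at day 40. Of the 38 genes, these 2 and CG8915 had more than 2-fold higher counts in that library than in the other day 10 libraries, and none of the 3 calls was lost without it. The calls of Yp2 and CG8915 were lost whichever day 40 library was left out, and that of snoRNA:U3:9B without day 40 replicate 2 or 3. Without day 10 replicate 3 the log2 change was -2.29 for Yp2 and -2.69 for snoRNA:U3:9B. U3 has near-identical copies elsewhere in the genome, so its count is uncertain.

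The JAK-STAT ligand gene upd3 fell from 84.6, 39.1 and 120 normalized counts to 21.3, 19.0 and 27.0 (log2 change -1.85, adjusted p = 0.0719, edgeR). Its highest library was again day 10 replicate 3, and the ages did not overlap. The call was lost without that library (adjusted p = 0.176, edgeR), and also whichever day 40 library was left out (adjusted p from 0.171 to 0.251, edgeR). The hemocyte marker Hml was lower at day 40 as well, as given above, and the part of hemocytes in this fall was not tested. The other 3 tested X-linked genes of this pathway, which include the receptor gene dome and the kinase gene hop, did not pass.

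Others of the lower genes with the lowest p-values follow here. The potassium leak channel gene Ork1 fell from 303, 361 and 376 normalized counts to 213, 213 and 142 (log2 change -0.89, adjusted p = 0.0459, edgeR). The chitin-binding gene obst-A fell from 170, 160 and 125 to 73.3, 79.5 and 83.7 (log2 change -0.94, adjusted p = 0.0429, edgeR). CG32512 and CG6324, for which no role is given here, and snoRNA:Psi28S-1135c fell by log2 changes of 0.79, 3.02 and 2.82. The last of these had at most 5.1 normalized counts in a day 40 library. The calls of Ork1, obst-A, CG32512 and snoRNA:Psi28S-1135c were lost whichever day 40 library was left out. Ork1 and this snoRNA also lost theirs without day 10 replicate 3 (adjusted p = 0.106 and 0.137, edgeR). Ork1 and obst-A also lost theirs without day 10 replicate 2. CG6324 lost its call without day 40 replicate 1 or 3. It was highest in day 10 replicate 3 (105 normalized counts, others of that age 59.5 and 29.9). Without that library its log2 change was -2.44.

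Another 13 genes fell at higher adjusted p-values, from 0.0532 to 0.0977 in edgeR, with log2 changes from -3.78 to -0.43. Among them, chosen for their known roles after their values were seen, were kdn (citrate synthase, 6313, 5000 and 4821 normalized counts at day 10, 3956, 3701 and 3547 at day 40) and Ran (a GTPase of nuclear transport, 2016, 1556 and 1995 at day 10, 1196, 1342 and 1274 at day 40). The guidance ligand gene Wnt5 belonged to them too, with 324, 337 and 332 at day 10 and 236, 198 and 246 at day 40. In all 3 of these genes the ages were separated by more than the spread within day 40. For kdn and Ran the separation was smaller than the spread within day 10. The calls of all 3 were lost whichever day 40 library was left out.

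The eye color gene w fell, and so did its neighbor CG32795, which ends 31 bases before it (X:2782906-2790567 and X:2790599-2796466). The gene w encodes an ABC transporter that carries pigment precursors into granules. Its normalized counts were 1802, 2106 and 1429 at day 10 and 569, 774 and 714 at day 40, a 2.59-fold fall (log2 change -1.37 ± 0.16, SE, adjusted p = 0.00421, edgeR). CG32795 fell from 1126, 865 and 730 to 572, 582 and 559 (log2 change -0.67, adjusted p = 0.0628, edgeR). Neither gene overlapped between the ages. The 5 of 8 pigment and cone cell markers counted as single genes, w among them and none at 0, summed to between 854 and 1023 CPM at day 10 and between 694 and 733 at day 40. The fall of this sum thus includes that of w. Of its other members, Crys and ct were lower in every day 40 library, and lz and wdp were higher in every one. The part of these cells in the fall of w was not tested. The flies carry a w mutation on the X chromosome and a w[+mC] marker in the transgene, and reads from the locus and from the marker cannot be told apart.

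The fall was not even over these genes. Exonic parts are stretches of exon shared by a set of transcripts, and a read over 2 parts can be counted in both. In CG32795, parts E013 and E014, the pair next to w, had summed normalized counts of 442, 356 and 270 at day 10 and 38.7, 51.5 and 47.3 at day 40, a ratio of 7.76. Its other 12 parts had 1102, 968 and 820 at day 10 and 947, 883 and 817 at day 40, a ratio of 1.09, and the ages overlapped there. In w, parts E001 to E005 had 1633, 2200 and 1509 at day 10 and 504, 609 and 595 at day 40 (a ratio of 3.13), whereas E006 had 447, 287 and 194 against 189, 264 and 224 (a ratio of 1.37), again with overlap. The decrease of both genes thus lay in adjoining parts, while the far parts of each differed little between the ages.

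**Figure D5:**
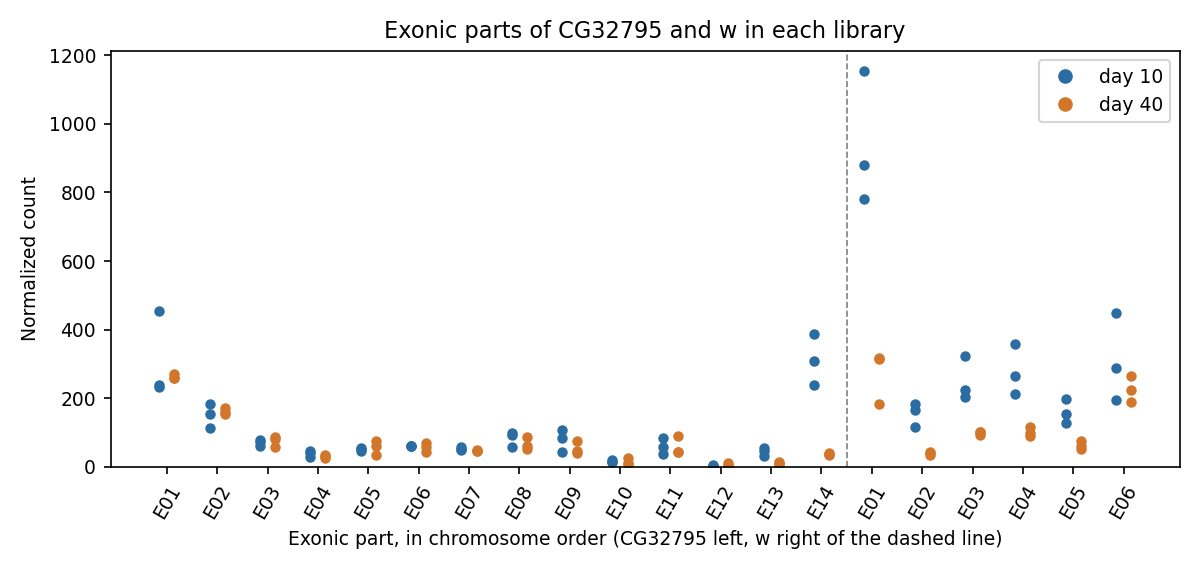
Normalized counts (vertical axis) of each exonic part of CG32795 (left of the dashed line) and w (right of it) in chromosome order, one point per library. The parts at the border of the genes are several-fold lower at day 40 (CG32795 E013 and E014, 7.76 times; w E001 to E005, 3.13 times), and the parts at the outer ends overlap between the ages.

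Lists of genes for functions of the eye, for metabolism and for other cell types held 85 places on the X chromosome in 19 lists, of which 77 were tested. Of these, 2 were higher (PGRP-SA and par-6) and 4 were lower (w, upd3, Yp2 and Cyp4g1), and 13 lists had no X-linked gene that passed. That was 7.79% of the places tested, against the background of 4.12%, on lists chosen with earlier results of these data known.

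Phototransduction genes on the X chromosome did not pass the test. The 5 tested, among them norpA and the diacylglycerol kinase gene rdgA, had a median log2 change of 0.10, and the 20 elsewhere had 0.10. For norpA, the mean was 37964 ± 10626 normalized counts at day 10 and 40779 ± 2449 at day 40 (SD, n = 3 each). The 7 ion channel genes, which include the potassium channel gene Sh and the calcium channel gene cac, also did not pass, and their median log2 change was -0.0033. Of the 6 pigment genes, w alone passed, and the median was -0.13.

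Of the adhesion and polarity genes listed, 11 of the 17 counted as single genes lay on the X chromosome. Their median log2 change was 0.15, with par-6 the one that passed. Inx2 and shakB, which encode gap junction channel proteins, had log2 changes of -0.34 each with adjusted p-values of 0.273 and 0.513 in edgeR. The chaperone gene Hsc70-3 had a log2 change of -0.26.

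Ribosomal protein genes and subunit genes of NADH dehydrogenase on the X chromosome did not pass the test. None of 10 cytosolic ribosomal protein genes passed, with a median log2 change of 0.17 against 0.09 for the 44 elsewhere. None of 7 mitochondrial ribosomal protein genes passed, with a median of -0.034. The 3 subunit genes of NADH dehydrogenase, ND-20, ND-75 and ND-24, had log2 changes of -0.33, -0.28 and -0.03, and the 37 genes of that list tested elsewhere had a median of -0.22. Copies of a gene such as RpS14a and RpS14b share reads, so their counts are uncertain.

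The 10 most abundant X-linked genes per kb had no gene that passed. The highest was the 214 base long noncoding RNA CR40469 (164015 normalized counts per kb over the 6 libraries), followed by the ribosomal protein gene RpL36 (21407). Day 10 replicate 1 was high for both, with 30520 normalized counts of RpL36 against 11907 and 11109 in the other day 10 libraries and 10227 to 12270 at day 40. Others among them were the cytoplasmic actin gene Act5C, the glutamine synthetase gene Gs2 and the odorant binding protein gene Obp19d, with log2 changes of -0.03, -0.03 and -0.09. The ages overlapped in these genes, and of the 10 only RpL35, another ribosomal protein gene, had its day 40 libraries all above those of day 10 (log2 change 0.22, adjusted p = 0.427 in edgeR).

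Of the groups of overlapping genes, 312 had all members on the X chromosome in Release 6 of the genome. Of these, 295 were tested, 4 were higher and 3 were lower at day 40 (2.37%, background 4.12%), and their median log2 change was -0.031, near that of the single X-linked genes.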

How the data were processed

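RNA-seq libraries of dissected male eyes came from day 10 (3) and day 40 (3). For each library, raw counts on genes and exonic parts were deposited by the authors in the layout of JunctionSeq. The submitters' processing notes name Trimmomatic, TopHat and BDGP6. Gene positions come from the authors' table of their JunctionSeq comparison, with 1 added to the start, and its fold changes, p-values and averaged signal were not used. Symbols were found for 1867 of the 1897 X-linked genes, and the 1863 matched to RefSeq were all on the X chromosome in Release 6. The members and gene lists were chosen with earlier results of these data known.

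Gene expression was tested in R 4.3.3 with edgeR 4.0.16 (quasi-likelihood test, TMM, default filter on low counts) on all genes and groups. The Benjamini-Hochberg method was used for adjustment and 0.1 as threshold. Each SE of a log2 change was derived as the absolute change divided by the square root of the F statistic of that test. Balances used log2 of the count plus 0.5 per kb. Arm 2R was not compared. DESeq2 1.42.0 was an alternative, as were other filters, normalizations and thresholds, a replicate block, left-out libraries and, added after the data were seen, groups on the X chromosome and leaving out w and CG32795. Genes named are up to 12 per direction with the lowest p-values among calls whose ages do not overlap, the 10 most abundant, roX1 and roX2, and list members that passed or, where none did, were most abundant. Libraries of one age all differed by more than counting error (chi-square per degree of freedom 21.5 to 61.8). On data simulated from these libraries, 200 genes with an expected count of at least 20 were changed by 2 on the log2 scale. Of these, edgeR recovered 188, and it called 20 others, with 9015 genes tested. Smaller changes were not simulated. Depth was 8476220 to 15029770 counts per library. An exact test of 1 gene on 3 libraries per age has 0.1 as its smallest p-value. Promoter sequences were not used here, so the planned description of GA repeats was not run.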

Additional observations from a re-analysis of the deposited data

How the results depend on the processing

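Direction and calls were stable for some results and not for others. The 13 higher and 25 lower X-linked genes became 21 and 47 in DESeq2, where 5.53% of X-linked genes passed against 6.22% of all, and all 38 passed there too. The lower calls numbered 12 at an adjusted p under 0.05. With 1 library left out, the higher calls ranged from 5 to 22 and the lower from 5 to 30. Shares over all features are not given for the stricter threshold, the left-out libraries or the replicate block. The balance at day 10 and day 40 was 0.70 and 0.75 with every gene that had at least 1 count (difference 0.045), -0.044 and -0.063 for mean normalized counts of at least 100 (difference -0.018), and 0.47 and 0.40 without division by exonic length. The share of counts on the X chromosome was 19.8% at both ages without the 100 most abundant genes. The cause of these differences was not tested. Of 336 values of the 24 named genes under alternatives, 285 kept their call, 51 lost it and 0 changed direction. The replicate numbers did not pair the samples: deviations of same-numbered libraries correlated at -0.035, -0.012 and 0.16, and only replicate 3 of each age correlated best with its own number. With a replicate block, 17 X-linked genes were higher and 29 lower, 36 of the 38 calls passed, and the adjusted p of CG34324 was 0.258. Each gene has 3 libraries per age, which limits what small changes could be detected.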
